A study of Mus musculus with 16 samples.

Results

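The genes described here are 35 members of the hypoxia response outside glycolysis, of 45706 gene IDs in the count table. They were chosen by symbol, with earlier results of these data known, as the subunits of hypoxia-inducible factor (HIF), its regulators, and known HIF targets that are not glycolytic enzymes. All 35 matched a gene ID, and all 35 passed the low count filter in both fits described below. HIF is a transcription factor made of an oxygen-sensitive alpha subunit and the stable subunit ARNT. When oxygen is plentiful, EGLN prolyl hydroxylases mark the alpha subunit, the VHL ubiquitin ligase recognises the mark, and the protein is destroyed; when oxygen is scarce, the alpha subunit accumulates and its targets are transcribed. Blood stem cells live in poorly oxygenated marrow, and HIF targets there limit mitochondrial activity and favour glucose use.

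RNA was sequenced from 16 libraries of mouse bone marrow, labelled Gata2 or WT at 3 times. LSK cells, the lineage-negative, Sca-1-positive, Kit-positive fraction that holds stem and early progenitor cells, gave 3 libraries of Day0_Gata2, 2 of Day0_WT, 2 of Day2_Gata2 and 3 of Day2_WT. Marrow carrying CD45.2, a variant of a surface protein of leukocytes that tells donor from host, gave 3 libraries each of Week2_Gata2 and Week2_WT. The series concerns haploinsufficiency of GATA2, a blood transcription factor, in marrow stressed by transplanting few sorted LSK cells into irradiated WT hosts. The labels name neither the Gata2 allele, the strain nor the age of the animals. They do not say what happened to the cells between Day0 and Day2, whether replicates are different animals, or which kit made which library. By counts of the Y-linked gene Ddx3y, Day0_WT replicate 2, Day0_Gata2 replicate 3 and Week2_Gata2 replicate 3 were female. The other libraries were male, so Day0_WT, Day0_Gata2 and Week2_Gata2 each included different animals. For the other groups this is not known. Each p-value therefore measures only the library-to-library spread, and how much of this is technical is not known.

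The LSK libraries held 19618830 to 68305582 counts and the Week2 libraries 176933583 to 320717267. Genes with a count numbered 19266 to 21944 in the Day2 libraries and 22150 to 30564 in the Day0 libraries. Day2 and Day0 libraries carry separate blocks of library names, so time and any difference between these library sets cannot be told apart. In LSK cells, Gata2 itself was not lower under the Gata2 label than in WT but higher, without overlap at either time. At Day2 it stood at 491 and 737 CPM (counts scaled to the size of the library) in Day2_Gata2, against 291, 262 and 259 CPM in Day2_WT. At Day0 it stood at 611, 752 and 677 CPM in Day0_Gata2, against 446 and 329 CPM in Day0_WT. The Week2 groups overlapped for Gata2, with 27.4, 12.4 and 7.86 CPM in Week2_Gata2, against 11.9, 14.5 and 11.1 CPM in Week2_WT. Genotype differences are therefore given as differences between libraries with these labels. The LSK markers fixed for the label check all had counts in every library, and their summed level was 1385 to 2378 CPM in the LSK libraries. Day0_WT replicate 1 stood apart, with the lowest depth and a correlation of 0.842 with replicate 2, against 0.978 to 0.992 for the other replicate pairs of LSK cells. By Ddx3y, Day0_WT replicate 1 was male and replicate 2 female. Levels are CPM with TMM scaling within the LSK libraries and within the Week2 libraries, so they are not tested between those sets. Log2 fold changes and p-values come from edgeR's quasi-likelihood test, with Benjamini-Hochberg adjustment over all 19162 genes tested in LSK cells or 36485 at Week2, and a change is called at an adjusted p under 0.05. In such bulk RNA, fewer cells of a type and less RNA per cell cannot be told apart.

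HIF binds DNA at a short core of the letters ACGTG, and 28 of the 35 members had a start-site window in the RefSeq table (build GRCm38.p6), which runs from 250 bases before to 50 bases after the start site. ACGTG, searched on both strands, was present in 17 of these 28 members (60.7%), against 21.8% of the 27025 genes in the table. The same letters lie within CACGTG, a site of other basic helix-loop-helix factors, which 17.9% of the members and 8.09% of all genes held. With GCGTG counted as well, the shares were 89.3% of members and 46.7% of all genes. A match describes the letters only; binding was not measured. The windows of 5 of the 17 members with a match are shown 5′ to 3′ on the gene's strand, with ACGTG matches on either strand in capitals: Ddit4 (chr10:59951721-59952020, minus strand), Bnip3 (chr7:138909457-138909756, minus), Ankrd37 (chr8:45999801-46000100, minus), Egln3 (chr12:54203825-54204124, minus) and Egln1 (chr8:124949205-124949504, minus).
Ddit4: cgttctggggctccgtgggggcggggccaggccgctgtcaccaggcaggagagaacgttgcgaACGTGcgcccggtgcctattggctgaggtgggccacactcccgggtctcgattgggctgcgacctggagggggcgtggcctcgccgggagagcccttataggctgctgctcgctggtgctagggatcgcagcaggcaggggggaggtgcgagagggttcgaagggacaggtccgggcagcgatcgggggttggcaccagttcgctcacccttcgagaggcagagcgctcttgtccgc
Bnip3: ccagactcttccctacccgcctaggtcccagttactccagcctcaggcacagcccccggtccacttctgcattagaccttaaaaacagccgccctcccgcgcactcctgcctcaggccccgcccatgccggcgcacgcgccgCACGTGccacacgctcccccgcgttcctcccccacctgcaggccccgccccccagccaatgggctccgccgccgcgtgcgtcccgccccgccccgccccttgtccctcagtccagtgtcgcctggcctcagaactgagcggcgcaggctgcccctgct
Ankrd37: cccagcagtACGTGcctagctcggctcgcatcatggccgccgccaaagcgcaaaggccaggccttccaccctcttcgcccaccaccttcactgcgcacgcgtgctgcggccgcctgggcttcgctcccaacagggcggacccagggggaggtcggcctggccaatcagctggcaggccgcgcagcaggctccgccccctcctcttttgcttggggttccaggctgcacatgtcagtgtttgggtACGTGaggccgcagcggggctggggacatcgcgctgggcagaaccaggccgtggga
Egln3: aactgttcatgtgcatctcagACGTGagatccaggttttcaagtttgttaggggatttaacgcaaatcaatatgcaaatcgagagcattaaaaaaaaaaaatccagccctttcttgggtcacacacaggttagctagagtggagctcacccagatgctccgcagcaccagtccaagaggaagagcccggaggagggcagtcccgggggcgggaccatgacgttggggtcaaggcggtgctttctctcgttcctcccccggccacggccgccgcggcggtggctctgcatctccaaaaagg
Egln1: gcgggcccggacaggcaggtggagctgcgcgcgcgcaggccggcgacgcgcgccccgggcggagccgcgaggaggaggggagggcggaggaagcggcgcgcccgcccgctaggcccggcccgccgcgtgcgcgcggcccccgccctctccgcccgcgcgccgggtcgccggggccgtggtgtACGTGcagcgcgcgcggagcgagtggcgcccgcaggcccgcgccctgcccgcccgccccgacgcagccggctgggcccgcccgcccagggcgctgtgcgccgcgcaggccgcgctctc
The Bnip3 match is a CACGTG, which reads as ACGTG on both strands. Ankrd37 holds separate matches far from and close to its start site. Ddit4, Egln3 and Egln1 hold 1 match each, so members with opposite time courses below share the motif. The windows of Stc2, Pdk1 and Adm, also described below but not shown, held no match.

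Among the HIF subunits, the alpha subunit gene Hif1a and the partner gene Arnt were well measured, while Epas1, which encodes the other main alpha subunit, was near the lower limit of detection. On the scale of CPM per kilobase of exon, Hif1a stood at 14.4 ± 2.39 in Day2_Gata2 (SD, n = 2) and 17.1 ± 1.72 in Day2_WT (SD, n = 3). Arnt stood at 7.14 ± 2.07 and Epas1 at 0.0371 ± 0.0374 in Day2_Gata2, against 8.30 ± 0.470 and 0.133 ± 0.0457 in Day2_WT. By library, Hif1a was at 94.9 and 74.9 CPM in Day2_Gata2, against 107, 107 and 89.1 CPM in Day2_WT. The groups overlapped, with a log2 fold change of -0.25 (SE 0.33). Arnt was at 69.0 and 45.5 CPM in Day2_Gata2, against 70.6, 65.3 and 63.4 CPM in Day2_WT, and its groups also overlapped. Epas1 was at 0.0593 and 0.355 CPM in Day2_Gata2, against 1.01, 0.729 and 0.499 CPM in Day2_WT. Its groups did not overlap, but the log2 fold change of -1.84 had a 95% interval of -3.72 to 0.05. None of the 3 subunits was called in any of the 6 comparisons in the edgeR fit reported. Over time in WT, Arnt was higher without overlap (log2 fold change 1.30, SE 0.49, adjusted p = 0.0715), and 3 of 12 alternative settings called it. Hif1a averaged 84.9 CPM in Day2_Gata2 and 50.1 CPM in Day0_Gata2, and 3 of 12 settings called that change. So did fits without either Day0_WT replicate. Single settings also called Hif1a over time in WT and at Week2, and Arnt over time under the Gata2 label. Reads of Hif1a may be shared with Gm49321, and those of Arnt with the pseudogene Gm42672, each annotated on the same strand at the same place.

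The 3 prolyl hydroxylases changed rank between Day0 and Day2. At Day0, the order per kilobase was Egln2, Egln1, Egln3 under both labels. Day0_Gata2 had 34.9 ± 2.05, 20.5 ± 2.31 and 15.3 ± 1.66 CPM per kilobase for Egln2, Egln1 and Egln3 (SD, n = 3), and their ranges did not overlap. Day0_WT had 27.2 ± 10.9, 14.1 ± 4.99 and 9.88 ± 4.02 in the same order (SD, n = 2), and the ranges of Egln1 and Egln3 overlapped there. By Day2 the order was Egln3, Egln2, Egln1. Day2_Gata2 had 36.6 ± 2.52, 25.5 ± 1.42 and 6.06 ± 2.73 CPM per kilobase for Egln3, Egln2 and Egln1 (SD, n = 2). Day2_WT had 78.7 ± 9.21, 29.6 ± 2.54 and 4.96 ± 0.543 in that order (SD, n = 3). No ranges overlapped within either Day2 group.

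Egln3, itself a HIF target, rose over time under both labels. Its CPM was 92.7 and 102 in Day2_Gata2, against 44.1, 35.8 and 42.6 in Day0_Gata2 (log2 fold change 1.25, SE 0.23, adjusted p = 0.00958). In WT it was 213, 183 and 232 in Day2_WT, against 18.7 and 33.9 in Day0_WT (log2 fold change 2.99, SE 0.26, adjusted p = 0.000184). Egln1, which encodes the main hydroxylase acting on the alpha subunit in normal oxygen and is also a known HIF target, fell over time. It stood at 14.9 and 28.7 CPM in Day2_Gata2, against 81.6, 65.1 and 74.7 CPM in Day0_Gata2 (log2 fold change -1.76, SE 0.32, adjusted p = 0.00976). In WT, Egln1 stood at 16.8, 16.6 and 20.1 CPM in Day2_WT, against 37.9 and 63.3 CPM in Day0_WT (log2 fold change -1.51, SE 0.30, adjusted p = 0.00700). Within each label the Day2 and Day0 libraries did not overlap for either gene. Between the labels at Day2, Egln3 had no overlap and was lower under the Gata2 label, without a call (log2 fold change -1.10, SE 0.24, adjusted p = 0.420). Egln2 was at 74.1 and 68.5 CPM in Day2_Gata2, against 76.4, 81.6 and 90.4 CPM in Day2_WT, without overlap. It was not called in any comparison in the fit reported, while 3 of 12 alternative settings called it over time under the Gata2 label and 1 of 12 in WT. Vhl, the recognition subunit of the ubiquitin ligase, was at 30.3 and 25.6 CPM in Day2_Gata2, against 36.3, 44.7 and 46.5 CPM in Day2_WT, with no overlap and no call (log2 fold change -0.60, SE 0.21, adjusted p = 0.822). Hif1an, which encodes an asparaginyl hydroxylase that blocks coactivator binding, was at 52.7 and 25 CPM in Day2_Gata2, against 63.5, 47.8 and 34.3 CPM in Day2_WT, with overlap.

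**Figure D1:**
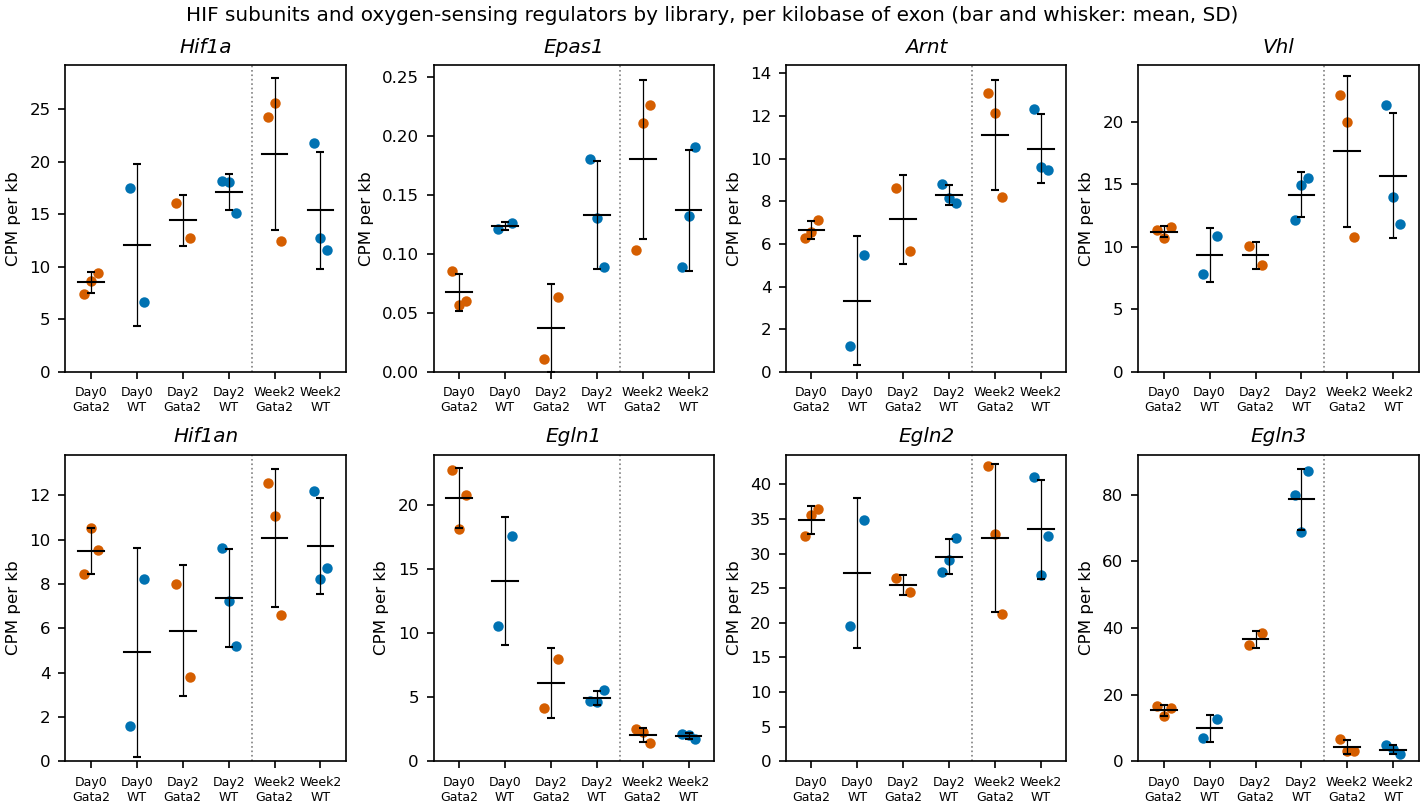
Levels of the HIF subunits and oxygen-sensing regulators in CPM per kilobase of exon (y axis) in each library, by group (x axis; orange, labelled Gata2; blue, WT; bar and whisker, mean and SD). The dotted line separates the LSK libraries from the separately scaled Week2 libraries; Egln1 is lower and Egln3 higher at Day2 than at Day0 under both labels.

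At Day2, which asks how cells with the Gata2 label differed from WT at that time, the targets stood lower in Day2_Gata2 almost throughout. The log2 fold change was negative for 34 of the 35 members, with Egln1 the exception at 0.29 (SE 0.30). The median was -0.75, also with Adm at its bound, against -0.001 over all genes tested. Every Day2_Gata2 library was below every Day2_WT library for 28 members, against 11.1% of all genes, and above for 0 members, against 9.96% of all genes. No member passed the adjusted threshold in edgeR's quasi-likelihood test, and neither did any other gene (0% of 19162). At an unadjusted p under 0.05, 22 members were lower and 0 higher, where 2.79% of all genes were lower and 2.8% higher. The remaining 7 members, Hif1a, Arnt, Hif1an, Egln1, Ndrg1, Pfkfb4 and Car9, overlapped between the groups.

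Calls at Day2 depended on the fit. DESeq2 called 12 members, all lower, among 144 genes called in all. Voom with quality weights (limma) called 5, Bnip3, Ddit4, Ankrd37, Bhlhe40 and Selenbp1, all lower, among 23 genes called in all. In edgeR, leaving out Day0_WT replicate 1 from the shared estimate of the spread gave 8 calls among 48 genes and leaving out Day0_WT replicate 2 gave 7 among 32, all lower. The summed level of 5 megakaryocyte markers also differed, at 1673 to 1683 CPM in Day2_Gata2 and 1895 to 2293 CPM in Day2_WT, and 2 of them, Pf4 and Ppbp, did not overlap. The share of counts on TEC transcripts, an annotation class of models that await experimental checks, was 0.0648% and 0.0702% in Day2_Gata2 and 0.0314% to 0.0582% in Day2_WT. With that share as a covariate 6 members were called, all lower, among 17 genes. None of the 5 megakaryocyte markers was at 0, and their part in the result was not tested. The 7 LSK markers overlapped between the groups, at 1385 to 1633 CPM in Day2_Gata2 and 1520 to 1610 CPM in Day2_WT.

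**Figure D2:**
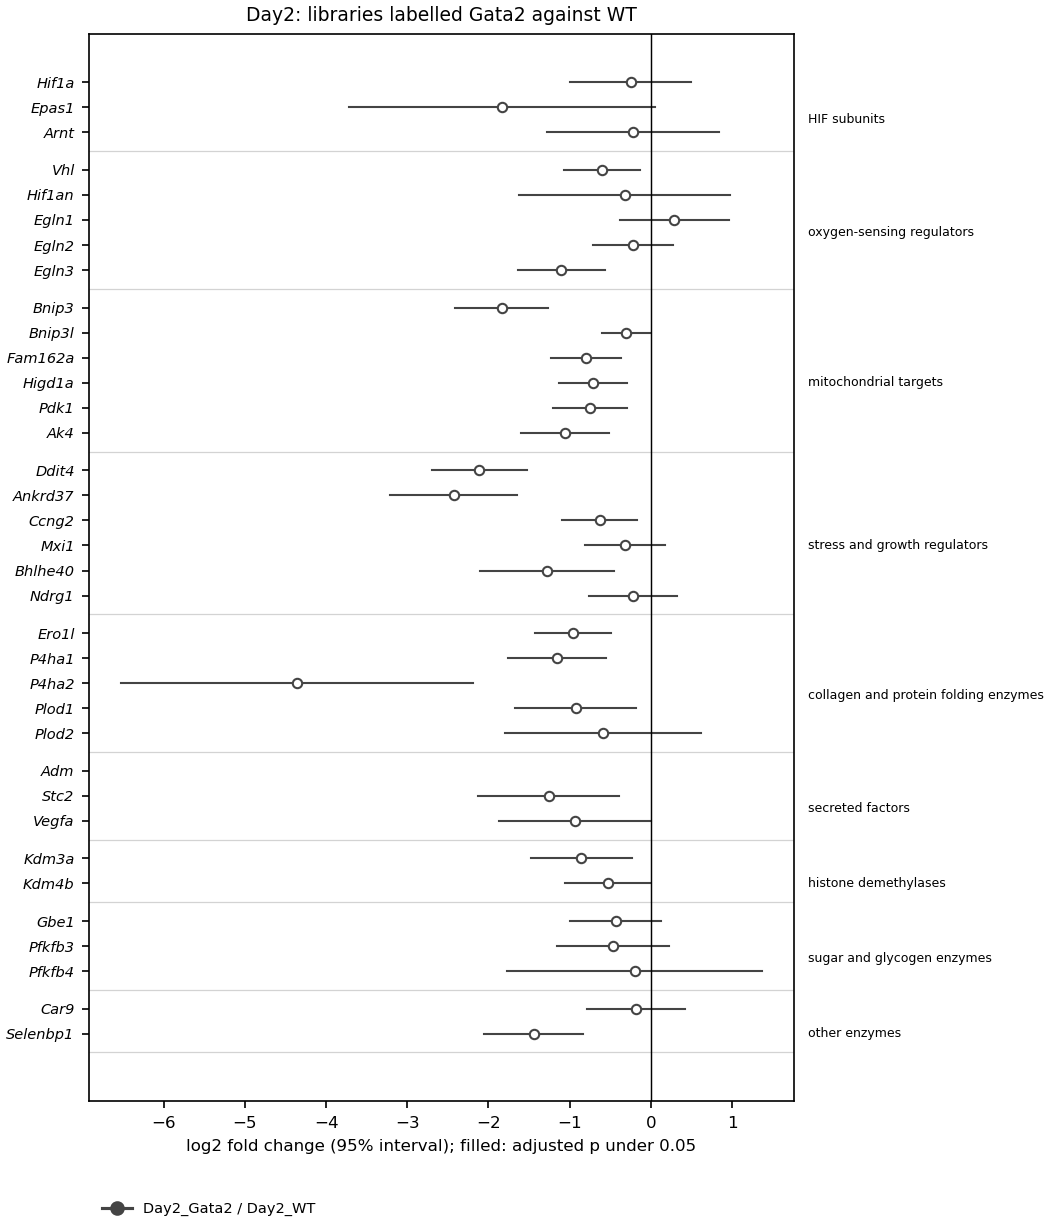
Log2 fold change of Day2_Gata2 over Day2_WT (x axis, with 95% interval) for each member (y axis), grouped by role; open points were not called. All points except Egln1 lie below 0, and Adm is not drawn because it had no count in Day2_Gata2.

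The mitochondrial targets were lower in both Day2_Gata2 libraries than in any Day2_WT library for 6 of 6 members, where 11.1% of all genes were. The same share of all genes applies to the counts of the other roles below. Bnip3, a mitophagy receptor, was at 73.4 and 64.9 CPM in Day2_Gata2, against 246, 214 and 281 CPM in Day2_WT. Its libraries were tight within each group (log2 fold change -1.84, SE 0.26, adjusted p = 0.151). Ak4, a mitochondrial adenylate kinase, was at 72.8 and 40.8 CPM in Day2_Gata2, against 120, 114 and 120 CPM in Day2_WT (log2 fold change -1.06, SE 0.24, adjusted p = 0.444). Its Day2_Gata2 libraries differed from each other more than the WT libraries did. Fam162a, a mitochondrial protein linked to hypoxia-induced cell death, was at 89.1 and 70.3 CPM in Day2_Gata2, against 110, 143 and 163 CPM in Day2_WT (log2 fold change -0.80, SE 0.19, adjusted p = 0.529). Per kilobase it was the most abundant member in every LSK group, at 93.8 ± 15.7 in Day2_Gata2 (SD, n = 2) and 163 ± 31.7 in Day2_WT (SD, n = 3). Pdk1, which inhibits pyruvate dehydrogenase, Higd1a, a respiratory chain-associated protein, and Bnip3l, the other mitophagy receptor, had log2 fold changes of -0.75 (SE 0.20), -0.71 (SE 0.19) and -0.31 (SE 0.13).

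Among the stress and growth regulators, 5 of 6 members did not overlap at Day2, all lower. Ddit4, a stress-induced inhibitor of mTOR complex signalling, was at 10.4 and 6.74 CPM in Day2_Gata2, against 37, 33.4 and 40.7 CPM in Day2_WT. This was the lowest p of the 35 members (log2 fold change -2.11, SE 0.26, adjusted p = 0.0991). Ankrd37, an ankyrin repeat protein induced by HIF, was at 4.76 and 4.28 CPM in Day2_Gata2, against 19.6, 22.8 and 30.6 CPM in Day2_WT (log2 fold change -2.43, SE 0.35, adjusted p = 0.153). The groups did not overlap for either gene and lay far apart. Reads of Ankrd37, Bnip3, Fam162a and Egln2, among other members, may be shared with genes annotated on the opposite strand. The strand setting of the counting is not given in the sources used here. Bhlhe40, a transcriptional repressor, was at 50.4 and 44.8 CPM in Day2_Gata2, against 126, 113 and 109 CPM in Day2_WT (log2 fold change -1.28, SE 0.37, adjusted p = 0.673). Ccng2, an atypical cyclin tied to cell cycle arrest, had -0.63 (SE 0.21), Mxi1, an antagonist of MYC, -0.32 (SE 0.22), and Ndrg1, a stress-response gene, -0.22 (SE 0.24).

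The collagen and protein folding enzymes were lower without overlap for 5 of 5 members. Ero1l, which reoxidises protein disulphide isomerase in the endoplasmic reticulum, was at 152 and 105 CPM in Day2_Gata2, against 237, 233 and 277 CPM in Day2_WT (log2 fold change -0.96, SE 0.21, adjusted p = 0.420). P4ha1, a catalytic subunit of collagen prolyl hydroxylase, was at 82.3 and 60.7 CPM in Day2_Gata2, against 157, 144 and 176 CPM in Day2_WT (log2 fold change -1.15, SE 0.27, adjusted p = 0.471). P4ha2, its paralog, was at 0.632 and 0.138 CPM in Day2_Gata2, against 7.12, 6.14 and 10.5 CPM in Day2_WT. Its difference was imprecise (log2 fold change -4.35, SE 0.97, adjusted p = 0.420), with a 95% interval of -6.52 to -2.19. P4ha2 was also uneven at Day0, at 0.838, 0.796 and 0.788 CPM in Day0_Gata2, against 6.29 CPM in Day0_WT replicate 1 and 0.882 CPM in replicate 2. The lysyl hydroxylase genes Plod1 and Plod2 had log2 fold changes of -0.92 (SE 0.33) and -0.59 (SE 0.54).

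The 3 secreted factors were lower without overlap. Adm, the vasodilator peptide adrenomedullin, had no count in either Day2_Gata2 library, against 0.609, 0.284 and 0.998 CPM in Day2_WT. Set against a floor of 3 counts per library, Adm was at least 10.6-fold lower in Day2_Gata2; this bound covers counting error only. Stc2, a stanniocalcin glycoprotein, was at 3.20 and 3.75 CPM in Day2_Gata2, against 7.20, 9.19 and 8.53 CPM in Day2_WT, and Vegfa, the vascular growth factor, was at 91.8 and 67.9 CPM in Day2_Gata2, against 154, 151 and 153 CPM in Day2_WT. Their log2 fold changes were -1.26 (SE 0.39) and -0.93 (SE 0.41). The histone demethylase genes Kdm3a and Kdm4b had -0.86 (SE 0.28) and -0.53 (SE 0.23), both without overlap.

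The remaining enzymes were mixed. Selenbp1, a selenium-binding protein with methanethiol oxidase activity, was at 41.8 and 38.9 CPM in Day2_Gata2, against 93.1, 101 and 135 CPM in Day2_WT (log2 fold change -1.44, SE 0.27, adjusted p = 0.335). Gbe1, the glycogen branching enzyme, and Pfkfb3, which makes an activator of phosphofructokinase, were lower without overlap at -0.43 (SE 0.25) and -0.46 (SE 0.31). Pfkfb4, a related enzyme, had -0.20 (SE 0.70), and Car9, a carbonic anhydrase often used as a marker of hypoxia, had -0.18 (SE 0.27), both with overlap. Car9 was at 22.4 and 19.8 CPM in Day2_Gata2, against 22.8, 22.1 and 27.0 CPM in Day2_WT.

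**Figure D3:**
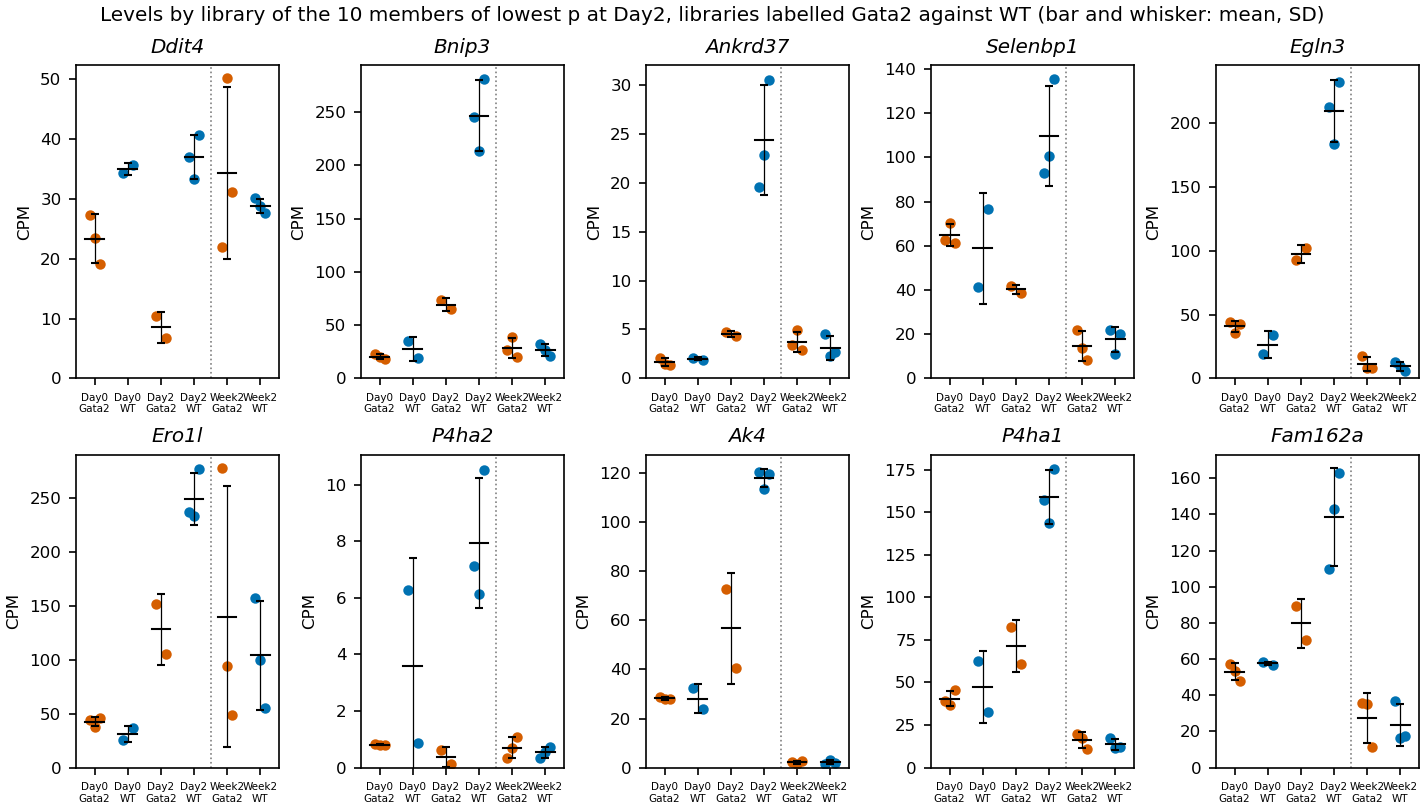
CPM (y axis) in each library, by group (x axis; orange, labelled Gata2; blue, WT; bar and whisker, mean and SD), for the 10 members of lowest p between Day2_Gata2 and Day2_WT. Week2 libraries, right of the dotted line, were scaled separately; in all 10 panels both Day2_Gata2 libraries lie below the 3 Day2_WT libraries.

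Between Day0 and Day2 in WT, 17 of the 35 members rose and 1, Egln1, fell, where 11.9% of all genes were called higher and 17.9% lower. The median log2 fold change of the members was 1.16, against -0.11 over all genes. All 6 mitochondrial targets rose, as did 4 of 5 collagen and folding enzymes, 2 of 3 secreted factors, 2 of 6 stress and growth regulators, Egln3, Kdm3a and Selenbp1. Stc2 had the largest rise, with 7.20, 9.19 and 8.53 CPM in Day2_WT, against 0.387 and 0.412 CPM in Day0_WT (log2 fold change 4.37, SE 0.47, adjusted p = 0.000427). Bnip3 had 246, 214 and 281 CPM in Day2_WT, against 35.4 and 19.5 CPM in Day0_WT (log2 fold change 3.17, SE 0.27, adjusted p = 0.000169). Ero1l had 237, 233 and 277 CPM in Day2_WT, against 25.6 and 36.4 CPM in Day0_WT (log2 fold change 3.0, SE 0.23, adjusted p = 0.000107). In each of these genes the Day2 and Day0 libraries were far apart. Ankrd37 rose by 3.60 (SE 0.38), Bhlhe40 by 3.20 (SE 0.41), Plod2 by 3.19 (SE 0.61), Vegfa by 2.98 (SE 0.46), Ak4 by 2.07 (SE 0.25) and Plod1 by 2.02 (SE 0.35) on the log2 scale. Pdk1, P4ha1, Kdm3a, Higd1a, Fam162a, Selenbp1 and Bnip3l rose by 0.78 to 1.82.

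Ddit4 did not follow the other targets over time in WT, at 37, 33.4 and 40.7 CPM in Day2_WT, against 34.3 and 35.7 CPM in Day0_WT (log2 fold change 0.08, 95% interval -0.46 to 0.63). The sugar and glycogen enzymes and Car9 also had log2 fold changes between -0.39 and 0.14 with overlap. Without Day0_WT replicate 1, 28 members lay higher without overlap and 3 lower, where 32.8% of all genes lay higher and 40.8% lower; with it, 21 lay higher and 1 lower, where 24.8% and 26.7% did. Leaving out Day0_WT replicate 2 gave 26 member calls among 12386 genes called, so that count moved with the calls over all genes. Selenbp1 kept its call in 9 of 22 alternative fits; among fits leaving out 1 library, it lost the call without Day0_WT replicate 1, Day2_Gata2 replicate 1, Day2_WT replicate 2 or 3, or any Day0_Gata2 replicate, and it turned to -0.31 with the TEC share. The TEC share was 0.0314% to 0.0582% in Day2_WT, against 0.362% and 0.187% in Day0_WT; with it as a covariate 14 members were called among 2358 genes, and 9 of the 14 were among the 18 above. Over all genes 2286 were called higher and 3434 lower, and with upper quartile scaling 1619 of 5633 called genes were higher. Megakaryocyte markers stood at 1895 to 2293 CPM in Day2_WT and 209 to 373 CPM in Day0_WT, and LSK markers at 1520 to 1610 CPM in Day2_WT and 1895 to 1950 CPM in Day0_WT. Of the LSK markers, the Sca-1 gene Ly6a and Flt3 were called lower (log2 fold changes -1.10 and -2.48), and the rest were not called. Neutrophil markers stood at 5126 to 7364 CPM in Day2_WT and 1596 to 3950 CPM in Day0_WT, and 5 of 7 rose: S100a8, S100a9, Ltf, Ngp and Camp. Monocyte and macrophage markers summed to 691 to 930 CPM in Day2_WT and 320 to 328 CPM in Day0_WT. Stroma and endothelium markers summed to 170 to 194 CPM in Day2_WT and 112 to 130 CPM in Day0_WT. Within these sums the markers were mixed. Ccr2 and Pecam1 were called higher (log2 fold changes 3.27 and 0.95). C1qa, Cxcl12 and Col1a1 were called lower (-3.66, -10.5 and -5.39), and the others were not called. Lower sums at Day2 were those of B cell markers (18.4 to 30.3 CPM in Day2_WT, 55.5 to 133 CPM in Day0_WT), T and NK cell markers (106 to 144 CPM in Day2_WT, 149 to 192 CPM in Day0_WT) and erythroid markers (18.8 to 19.95 CPM in Day2_WT, 56.0 to 75.3 CPM in Day0_WT). The part of these marker shifts in the result was not tested.

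In the libraries labelled Gata2, 9 members rose between Day0 and Day2 and 2 fell, where 4.48% of all genes were called higher and 4.82% lower. The median log2 fold change was 0.34, against -0.07 over all genes; without Day2_Gata2 replicate 1 it was -0.07, against -0.27 over all genes. Stc2 had 3.20 and 3.75 CPM in Day2_Gata2, against 0.319, 0.279 and 0.394 CPM in Day0_Gata2 (log2 fold change 3.38, SE 0.39, adjusted p = 0.00105). Bhlhe40 had 50.4 and 44.8 CPM in Day2_Gata2, against 5.93, 4.68 and 7.49 CPM in Day0_Gata2 (log2 fold change 2.98, SE 0.36, adjusted p = 0.00148). Both genes were well separated in time. Ero1l had 152 and 105 CPM in Day2_Gata2, against 44.2, 37.7 and 45.8 CPM in Day0_Gata2 (log2 fold change 1.59, SE 0.20, adjusted p = 0.00195). Bnip3 rose by 1.78 (SE 0.24), Vegfa by 1.62 (SE 0.40), Ankrd37 by 1.43 (SE 0.32), Ak4 by 1.01 (SE 0.23) and Bnip3l by 0.50 (SE 0.13), beside Egln3 above. Ddit4 fell with Egln1: it had 10.4 and 6.74 CPM in Day2_Gata2, against 27.3, 23.5 and 19.1 CPM in Day0_Gata2 (log2 fold change -1.44, SE 0.26, adjusted p = 0.00829).

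The count of calls in this comparison moved with the libraries used for the spread. It was 20 among 4863 genes without Day0_WT replicate 1 and 18 among 4606 genes without Day0_WT replicate 2, which are not compared here. It was 5 among 499 genes and 6 among 804 genes without Day2_Gata2 replicates 1 and 2, and 7 among 698 genes without Day0_Gata2 replicate 2, so it moved with the calls over all genes. Of 22 alternative fits, Vegfa and Bnip3l each lost the call in 11 and Ankrd37 and Ak4 in 7, while Stc2, Bhlhe40 and Bnip3 were called in all 22. Without Day2_Gata2 replicate 1, none of Vegfa, Bnip3l, Ankrd37, Ak4, Egln3 and Egln1 was called, and Ak4 stood at 0.45. Without Day2_Gata2 replicate 2, Vegfa, Bnip3l, Ankrd37, Egln3 and Ddit4 were not called. Vegfa also lost the call without any 1 Day2_WT replicate and without Day0_Gata2 replicates 1 or 2, Bnip3l without Day2_WT replicate 2 or any Day0_Gata2 replicate, Ankrd37 without Day2_WT replicate 2 or Day0_Gata2 replicates 2 or 3, and Ak4 without any Day0_Gata2 replicate. Fitting the TEC share as well gave 17 calls among 5031 genes, of which 9 were among the 11 above. Megakaryocyte markers stood at 1673 to 1683 CPM in Day2_Gata2 and 282 to 337 CPM in Day0_Gata2, and LSK markers at 1385 to 1633 CPM in Day2_Gata2 and 2131 to 2378 CPM in Day0_Gata2. Of the LSK markers, Ly6a and Flt3 were again called lower (log2 fold changes -1.38 and -2.10), and the rest were not called. Monocyte and macrophage markers summed to 726 to 742 CPM in Day2_Gata2 and 225 to 524 CPM in Day0_Gata2. Stroma and endothelium markers summed to 172 to 187 CPM in Day2_Gata2 and 123 to 139 CPM in Day0_Gata2. Here too the markers were mixed. Ccr2 and Pecam1 were called higher (log2 fold changes 3.30 and 0.65), Cxcl12 was called lower (-6.55), and the others were not called. Neutrophil sums overlapped, at 5392 to 7714 CPM in Day2_Gata2 and 4028 to 6291 CPM in Day0_Gata2, though Ngp rose. Lower sums at Day2 were those of B cell markers (19.3 to 28.1 CPM in Day2_Gata2, 58.8 to 86.4 CPM in Day0_Gata2), T and NK cell markers (127 to 151 CPM in Day2_Gata2, 192 to 278 CPM in Day0_Gata2) and erythroid markers (13.3 to 22.4 CPM in Day2_Gata2, 45.3 to 72.6 CPM in Day0_Gata2). Up to 3 of 5 B cell markers and up to 2 of 5 T and NK cell markers had no count in a Day2_Gata2 library. The part of these marker shifts in the result was not tested.

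**Figure D4:**
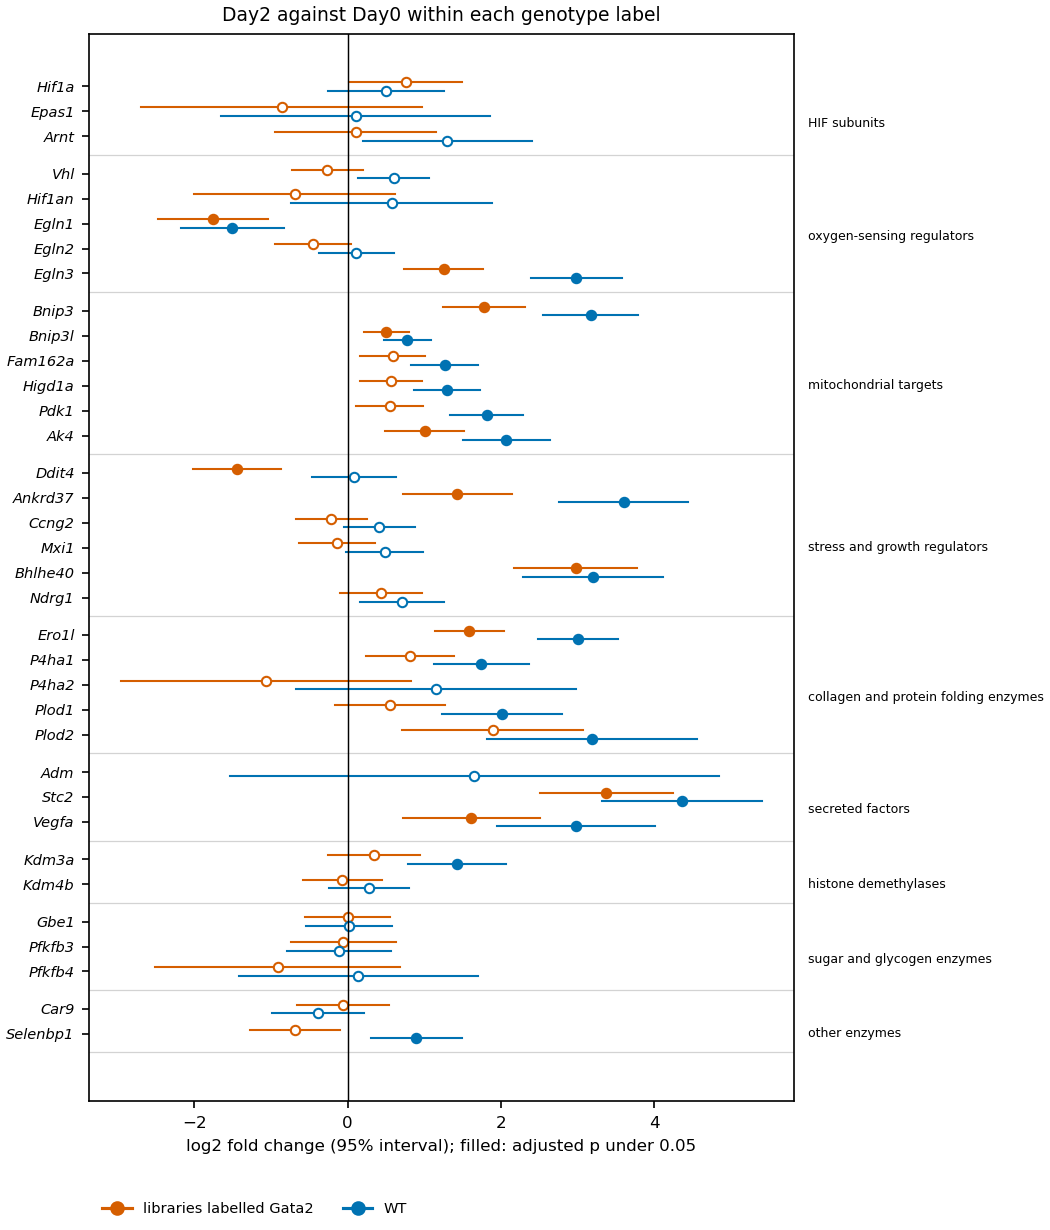
Log2 fold change of Day2 over Day0 (x axis, with 95% interval) for each member (y axis), in libraries labelled Gata2 (orange, upper point) and WT (blue, lower point); filled points were called. Adm is not drawn for the Gata2 label because it had no count in Day2_Gata2; 32 of the 35 members had a smaller fitted log2 fold change under the Gata2 label.

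Set side by side, the median log2 fold change of all 35 members over time was 0.34 under the Gata2 label and 1.16 in WT. Of the 17 members that rose in WT, 9 were called under both labels and 8 in WT alone, namely Pdk1, Higd1a, Fam162a, P4ha1, Plod1, Plod2, Kdm3a and Selenbp1. A call under 1 label alone does not show a difference, so the difference itself was tested as the Day2 genotype difference minus the Day0 genotype difference. It was negative for 32 of the 35 members, with a median of -0.99 against -0.06 over all genes. No member and no other gene (0% of 19162) passed in edgeR, while 16 members were lower and 0 higher at an unadjusted p under 0.05, where 3.53% of all genes were lower and 6.83% higher. The lowest p values were those of Egln3 (-1.73, SE 0.34), Ero1l (-1.41, SE 0.30) and Ankrd37 (-2.17, SE 0.47), each with an adjusted p of 0.465. DESeq2 called 6 members, all lower, among 216 genes, limma voom called 0, and edgeR without Day0_WT replicate 2 called 22 among 6733 genes. Bhlhe40 and Stc2, which rose most under the Gata2 label, had differences of -0.22 (95% interval -1.36 to 0.91) and -0.99 (95% interval -2.24 to 0.27). The comparisons share libraries, so their values are not independent.

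**Figure D5:**
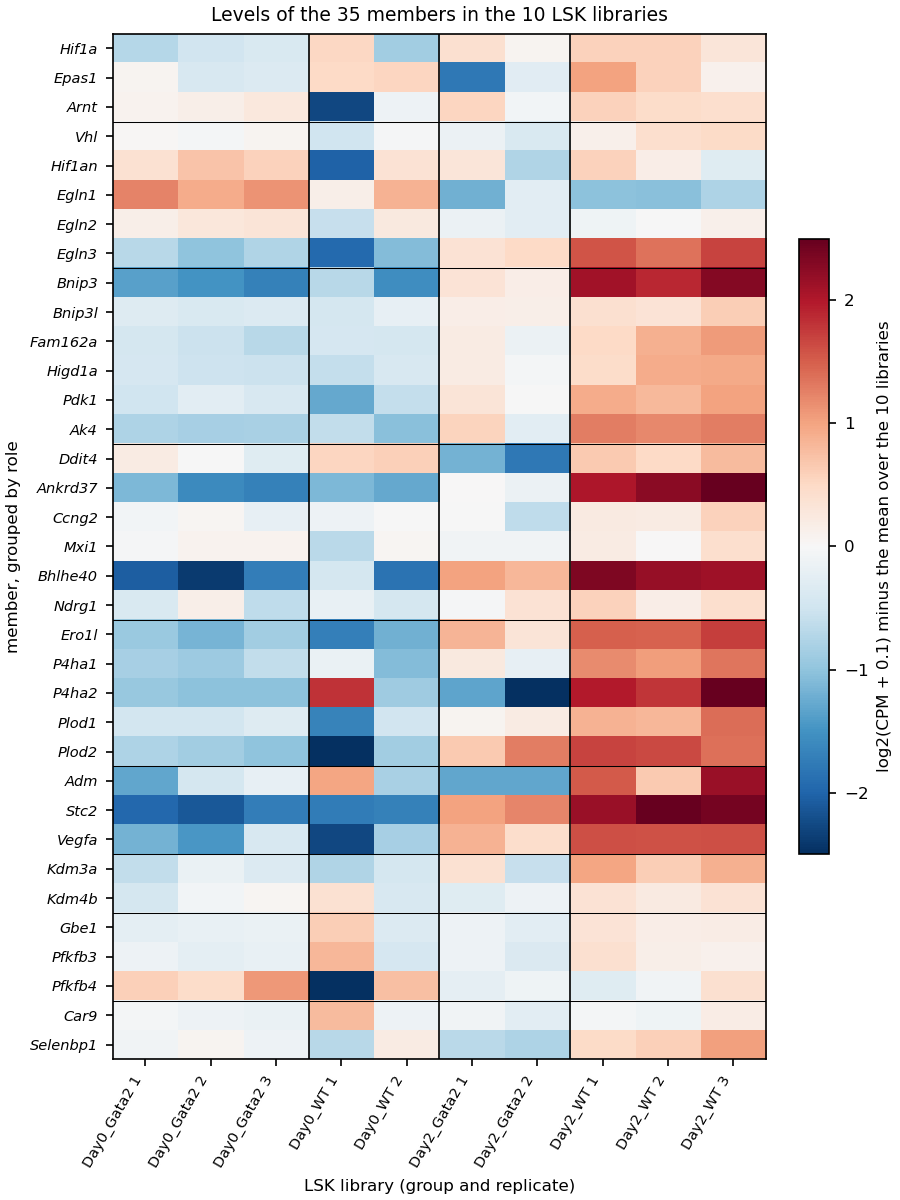
Levels of the 35 members (rows, grouped by role) in the 10 LSK libraries (columns), as log2(CPM + 0.1) minus the member's mean over the 10 libraries; the colour scale ends at 2.5 in either direction. The 3 Day2_WT columns are the reddest for most targets, the Day2_Gata2 columns are paler, and Day0_WT replicate 1 differs from its partner in many rows.

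At Day0, before the interval, the members showed no common direction between the labels. The median log2 fold change of Day0_Gata2 over Day0_WT was 0.01, and it ran from -0.08 to 0.25 over the alternatives. In edgeR no member and no other gene (0% of 19162) was called; DESeq2 called 0 members among 417 genes, and limma voom called 0 members and 0 genes. At an unadjusted p under 0.05, 2 members were higher and 3 lower, where 4.33% and 9.17% of all genes were. Without overlap, 7 members were higher (Arnt, Hif1an, Egln1, Egln3, Pdk1, Ero1l and Plod1) and 3 lower (Epas1, Ddit4 and P4ha2), where 18.3% and 14.2% of all genes were. Bhlhe40 was at 5.93, 4.68 and 7.49 CPM in Day0_Gata2, against 18.5 and 6.88 CPM in Day0_WT (log2 fold change -1.06, SE 0.36, adjusted p = 0.341), and its groups overlapped. Egln3 (0.63, SE 0.24, adjusted p = 0.342) and P4ha2 (-2.13, SE 0.79, adjusted p = 0.341) had the other lowest p values. Day0_WT replicate 1 was the highest of the 5 libraries for 13 members and the lowest for 17. Without it, 12 members were higher and 7 lower without overlap, where 31.8% and 28.7% of all genes were; without Day0_WT replicate 2 the fit called 21 members, 14 higher and 7 lower, among 8655 genes.

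At Week2, in CD45.2 marrow, no member differed beyond the spread of the libraries. The groups overlapped for all 35 members, where 0.674% of all genes lay higher and 0.737% lower without overlap. In edgeR 0 members and no other gene (0% of 36485) were called, and 0 members had an unadjusted p under 0.05, where 0.0987% of all genes were higher and 0.14% lower at that level. The lowest p values belonged to Bhlhe40, at 46.8, 32.1 and 25.2 CPM in Week2_Gata2, against 27.2, 29.3 and 12.6 CPM in Week2_WT (log2 fold change 0.59, SE 0.41, adjusted p = 1). Hif1a was at 143, 151 and 73.3 CPM in Week2_Gata2, against 128, 75.4 and 68.3 CPM in Week2_WT (log2 fold change 0.43, SE 0.41, adjusted p = 1). P4ha1 was at 19.9, 17.5 and 11.1 CPM in Week2_Gata2, against 17.4, 11.6 and 11.8 CPM in Week2_WT. Libraries within each group were as far apart as the groups. The log2 fold change was positive for 30 of the 35 members, where 50.1% of all genes were positive. The members' median of 0.12 was -0.03 with upper quartile scaling, -0.07 without Week2_Gata2 replicate 1 and 0.40 without Week2_WT replicate 1. DESeq2 called 0 members; limma voom called 13, all higher, among 12866 genes called in all. Neutrophil markers ran from 17591 to 90815 CPM in Week2_Gata2 and from 18510 to 77606 CPM in Week2_WT. Erythroid markers spread more widely, from 19.8 to 2284 CPM in Week2_Gata2 and from 23.1 to 6898 CPM in Week2_WT. The part of either marker set in these values was not tested.

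Other genes of the pathway were listed for comparison. Over all genes, 11.1% were lower and 9.96% higher without overlap at Day2. Over time, 4.48% of all genes were called higher and 4.82% lower under the Gata2 label, and 11.9% and 17.9% in WT. Of 18 glycolytic HIF targets, 16 were lower without overlap in Day2_Gata2 than in Day2_WT and 0 higher, with a median log2 fold change of -0.75 that happened to equal the members'. Their lowest p values were those of the phosphofructokinase gene Pfkl (-0.80, SE 0.12, adjusted p = 0.168), the lactate exporter gene Slc16a3 (-1.21, SE 0.19, adjusted p = 0.194) and the aldolase gene Aldoc (-2.13, SE 0.35, adjusted p = 0.207). Between Day0 and Day2, 12 of the 18 rose under the Gata2 label and 17 in WT, and 0 fell under either. Of 29 tested among 30 other hypoxia-inducible genes, 6 were lower and 1 higher without overlap at Day2, with a median of -0.33. Hmox1, the haem oxygenase gene, stood out there at 5.81 and 1.93 CPM in Day2_Gata2, against 165, 130 and 139 CPM in Day2_WT (log2 fold change -5.22, SE 0.61, adjusted p = 0.0828). Next in that list were Anxa2, a membrane-binding annexin (-1.07, SE 0.23), and Nfil3, a transcription factor (-0.99, SE 0.37). Over time, 2 of that list rose and 1 fell under the Gata2 label, and 7 rose and 1 fell in WT. Of 18 tested among 19 genes of the HIF machinery, 2 were lower and 0 higher without overlap at Day2, with a median of -0.04. That count of lower genes was near the share over all genes. Over time 2 rose and 2 fell under the Gata2 label, and 4 rose and 3 fell in WT.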

How the data were processed

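The authors deposited raw read counts, as whole numbers, for each Ensembl gene ID in 16 libraries. Per the submitters' processing notes, Trimmomatic 0.38, STAR 2.5.2b and the build mm10 were used; no source used here names the counting program or its strand setting, and 15 of the 35 members overlap another annotated gene. Columns were assigned to samples by their names. Symbols, exon lengths and gene classes came from GENCODE M21 (45143 IDs matched). The unmodified counts went into edgeR 4.0.16 under R 4.3.3 (TMM, filterByExpr, robust quasi-likelihood test, Benjamini-Hochberg over all genes, threshold 0.05): the 10 LSK libraries as 4 groups, the 6 Week2 libraries alone, in 6 comparisons. CPM and CPM per kilobase were computed from the counts. The test was checked on simulated counts. DESeq2 1.42.0 and limma 3.58.1 were alternatives. The members, the lists and the roles were chosen with earlier results of these data known. Levels by library are given for HIF subunits and regulators, the 10 members of lowest p at Day2, and the 3 of lowest p in comparisons with no call. Every member called is named. For the glycolytic and the other hypoxia-inducible genes, the 3 of lowest p at Day2 are given by fold change, with levels for Hmox1 alone. Genes of the HIF machinery are only counted. Other examples, such as Car9 and Ddit4 over time in WT, were chosen after their values were seen. Motifs were searched in RefSeq start-site windows; 7 members had none. Sequences and figures were made from the same files.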

Additional observations from a re-analysis of the deposited data

How the results depend on the processing

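At Day2 for the Gata2 label against WT, 0 members were called as reported, and other settings called more. Members called were 5 among 22 genes called with no low count filter, 12 among 144 with DESeq2 and 5 among 23 with limma voom. They were 2 among 4 with all 16 libraries in one fit and 4 among 11 with the Day2 libraries alone. With the sex inferred from Ddx3y as a covariate, 1 was called among 3. With the TEC share as a covariate, a setting chosen after seeing the data, 6 were called among 17. All of these were lower, and leaving out each library gave 0 to 8, the 8 among 48 genes. Leaving out each library gave 0 to 21 at Day0, the 21 among 8655 genes called. At Week2 limma voom gave 13 among 12866 genes, where the median of all genes was -0.21. For Day2 against Day0 under the Gata2 label, 11 as reported, limma voom gave 19 among 4127 genes, the groups compared alone 21 among 5676, the TEC share 17 among 5031, and leaving out each library 5 among 499 to 20 among 4863. For the difference between the Day2 and Day0 genotype differences, DESeq2 gave 6 among 216 genes and leaving out each library 0 to 22, the 22 among 6733 genes. In WT, 18 as reported, the alternatives gave 12 among 1355 genes (limma voom) to 20 among 7258 (DESeq2). Leaving out each library there gave 17 to 26, the 26 among 12386 genes. The cause of these shifts was not tested.

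Deviations of same-numbered replicates from their group means had correlations of -0.75 to 0.45. With so few libraries per group these deviations depend on each other, so they cannot show whether the numbers pair samples. With the replicate block, calls were 7 among 745 genes over time under the Gata2 label and 17 among 2747 in WT. In the other 4 comparisons 0 members were called, among at most 12 genes (Week2). Signs turned for Arnt at Day2 (0.0492 with the TEC share; -0.45 to 0.0602 leaving out each library), Hif1an at Day2 (-0.86 to 0.12), Egln1 at Day2 (-0.26 to 0.79), Bhlhe40 at Day0 (0.16 with the TEC share), P4ha2 at Day0 (0.35 with the TEC share) and Selenbp1 over time in WT (-0.31 with the TEC share). Upper quartile scaling gave 1619 of 5633 genes called higher over time in WT, against 2286 higher and 3434 lower in the fit reported, and moved the median of all genes to -0.26. With no low count filter that median was 0.29 at Day0 and -0.91 over time under the Gata2 label. Adding GCGTG to the motif raised the share of members that hold it to 89.3%. The members' median over time under the Gata2 label ran from -0.0654 (without Day2_Gata2 replicate 1) to 0.4599 (without Day0_Gata2 replicate 2) and was 0.1318 with no low count filter; at Week2 it ran from -0.0701 to 0.3968, and at Day0 from -0.0847 to 0.2465. Depth limits Adm, Epas1 and P4ha2, with 0, 21 and 39 counts over the Day2_Gata2 libraries, and Stc2, with 29 over the Day0_WT libraries.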
